A study of Homo sapiens with 8 samples.

Results

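Interferon-stimulated genes were examined in LNCaP cells during treatment with recombinant asporin (ASPN, a protein secreted by stroma). LNCaP is an established cell line from a lymph node metastasis of a human prostate carcinoma. The set was a fixed list of 39 gene symbols, chosen by name, with earlier results of these data known. Rows of the count table were matched on the gene name, which gave 38 of the 39 symbols among 36474 genes in all, and XAF1 was not analysed here. Of these 38 genes, 34 held 10 or more counts in at least 2 of the 8 libraries and are called detected. Cells were starved without serum or calcium, given ASPN at 100 ng/mL, and harvested for bulk mRNA sequencing at 0 h (n = 2), 12 h (n = 3) and 24 h (n = 3). The labels name the 0 h cells as ASPN-treated for 0 h, and all groups shared the starvation before ASPN. Cells kept for 12 or 24 h without ASPN were not analysed here, so ASPN and time in the starvation medium cannot be told apart. The labels call the libraries biological replicates, and the published methods state that cells were plated in wells. Whether the wells were separate cultures is not stated, so p-values measure only the spread between these libraries.

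Interferons are secreted proteins released upon infection, and type I interferons bind the IFNAR1 and IFNAR2 receptor, which acts through the kinases JAK1 and TYK2. The kinases phosphorylate STAT proteins, among them STAT2, which join IRF9 and bind a DNA element called the interferon-stimulated response element (ISRE). STAT dimers formed in response to type II interferon bind a separate element called GAS. The genes switched on in this way encode sensors of viral RNA, enzymes that degrade or edit it, the ubiquitin-like protein ISG15, and factors such as IRF7 that amplify the response. LNCaP cells are known for low JAK1 and a weak response to interferon.

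The promoters of the members were compared for the letters that define this family. An ISRE was taken as GAAANNGAAA on either strand (TTTCNNTTTC on the other) and a GAS element as TTCNNNGAA, in RefSeq windows of GRCh38.p14 from 250 bases before to 50 bases after each start site. Windows were found for 32 of the 39 symbols, and the symbols with no window were IFIT2, MX2, OAS2, OASL, IRF2, IRF7 and USP18. An ISRE match was present in 21 of these 32 members (65.6%), against 4.38% of 27305 genes and 3.57% of 35116 windows. A GAS match was present in 9 of 32 members (28.1%), against 9.38% of genes and 7.66% of windows. Both matches were present in 5 members, and the elements overlapped in BST2, MX1 and IFI27. Among the members with an ISRE match, the promoters of the 6 with the smallest adjusted p against 0 h are shown 5′ to 3′ on the gene's strand, from 160 bases before the start site to 20 bases after it, because they hold the element that interferon acts through. Of these 6, PARP9 and DTX3L did not pass the test (adjusted p = 0.0534 and 0.0587, edgeR). Of the members past the test that are not shown, HERC6 had a window with no match and IRF7 had no window. Capitals mark each ISRE match. The matches of ISG15 overlap each other, and PARP9 and DTX3L face away from each other and share a single match on chromosome 3.
OAS3 (chr12:112938314-112938493, plus strand): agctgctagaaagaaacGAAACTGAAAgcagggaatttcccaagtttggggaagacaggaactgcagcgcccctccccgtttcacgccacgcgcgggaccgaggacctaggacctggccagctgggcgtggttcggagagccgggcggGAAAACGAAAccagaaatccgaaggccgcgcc
ISG15 (chr1:1013337-1013516, plus strand): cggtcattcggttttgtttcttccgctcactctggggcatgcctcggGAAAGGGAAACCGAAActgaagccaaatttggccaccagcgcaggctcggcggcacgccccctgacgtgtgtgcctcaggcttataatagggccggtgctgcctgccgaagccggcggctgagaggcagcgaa
ISG20 (chr15:88638856-88639035, plus strand): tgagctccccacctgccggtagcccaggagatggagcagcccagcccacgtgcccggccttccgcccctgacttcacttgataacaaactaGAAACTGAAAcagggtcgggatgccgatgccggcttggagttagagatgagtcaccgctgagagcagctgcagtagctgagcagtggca
EIF2AK2 (chr2:37156961-37157140, minus strand): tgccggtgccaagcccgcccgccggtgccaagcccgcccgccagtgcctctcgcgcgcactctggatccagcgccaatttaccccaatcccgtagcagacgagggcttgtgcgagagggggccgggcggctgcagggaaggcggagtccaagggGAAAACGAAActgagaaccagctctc
PARP9 (chr3:122564281-122564460, minus strand): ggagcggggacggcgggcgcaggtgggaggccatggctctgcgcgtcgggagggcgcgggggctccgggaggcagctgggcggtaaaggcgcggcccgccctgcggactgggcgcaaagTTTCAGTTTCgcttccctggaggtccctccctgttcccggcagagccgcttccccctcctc
DTX3L (chr3:122564178-122564357, plus strand): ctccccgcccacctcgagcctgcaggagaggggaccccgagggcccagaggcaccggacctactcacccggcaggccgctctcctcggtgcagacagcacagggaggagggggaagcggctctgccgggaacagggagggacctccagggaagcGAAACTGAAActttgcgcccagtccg

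**Figure D1:**
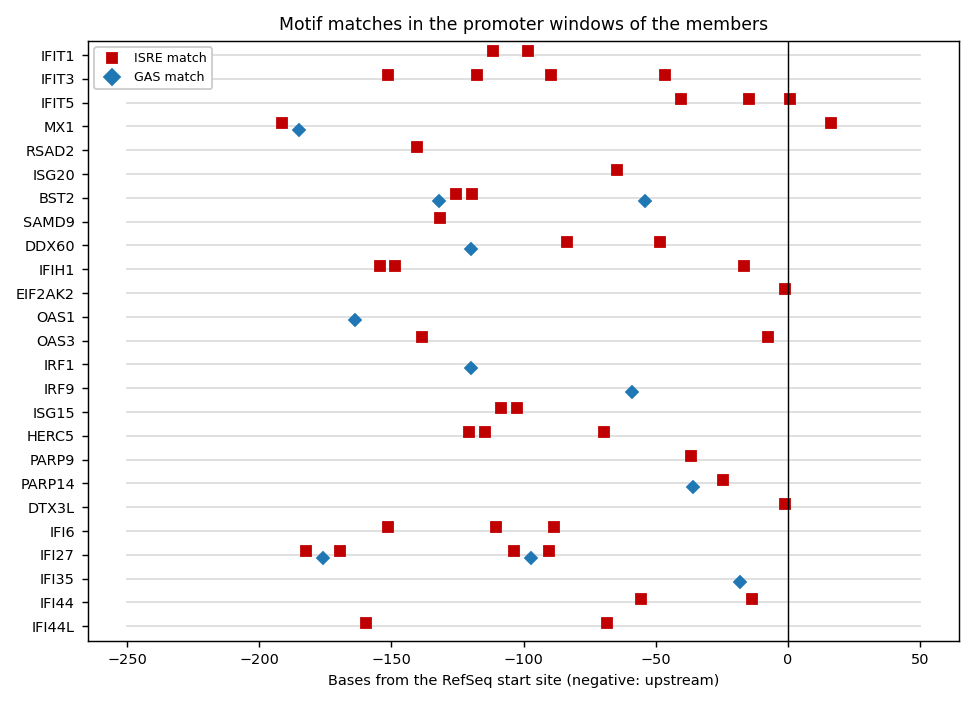
Positions of ISRE matches (red squares) and GAS matches (blue diamonds) in the promoter windows of the 25 members with a match, with bases from the RefSeq start site on the x axis and every window of a gene drawn on 1 line. ISRE matches were found in 21 members, and the matches of EIF2AK2 and DTX3L and a match of IFIT5 lie across the start site.

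Library totals ran from 73406825 to 96962135 counts, with 6.20% to 7.32% of counts from mitochondrial genes, and no library was left out. Levels are given in CPM, each count divided by its library's TMM-normalized size. A count of 0 in a library allowed up to 0.0309 to 0.0409 CPM (3 counts), a limit that covers counting error only. Libraries carried prostate markers of the line, with KLK3 at 912 to 1386 CPM. The leukocyte markers PTPRC and CD3E held at most 7 and 1 counts in a library, and summed CPM over all 8 leukocyte markers was 0.318 and 0.481 at 0 h, 0.207 to 0.325 at 12 h and 0.310 to 0.354 at 24 h. Summed CPM was 21.3 to 23.9 over 7 fibroblast markers and 11.2 to 17.3 over 4 endothelial markers, of which VWF was the single one tested and was lower at 24 h (log2 change -0.38, adjusted p = 0.00175, or 0.0949 without the unnumbered 0 h library). Of 8 prostate line markers, 5 (62.5%) were higher at 12 h by the same edgeR test as the members, against 4.85% of all genes. Against 7.82% of all genes, 7 of these markers (87.5%) were higher at 24 h, and KRT18 was lower. Without 0 h replicate 1, 3 and 2 of them were higher. The part of these markers in the members' changes was not tested.

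Most members were expressed at low levels, and the family spanned a wide range. In the order of CPM per kb of exon averaged over all 8 libraries, 16 of the 34 detected members lay above 1, 12 lay between 0.1 and 1, and 6 lay below 0.1. ISG15 (30.2 CPM per kb) and ADAR, the editor of double-stranded RNA (27.2 CPM per kb), stood at the top, followed by TRIM25, a ubiquitin ligase of RNA sensing, at 10.5 and IFI6, a small mitochondrial protein, at 9.94. At the other end, OAS1 was at 0.0370, IRF9 at 0.0535, IFI27 at 0.0552 and the antiviral enzyme RSAD2 (viperin) at 0.0694 CPM per kb. The level of IRF9 is uncertain, since 27.2% of its exon bases are shared with other genes. ADAR alone contributed 40.6% to 42.5% of the summed CPM of the detected members and TRIM25 another 15.7% to 16.6%. The summed CPM of the detected members was 780 and 788 at 0 h, 782 to 820 at 12 h and 819 to 828 at 24 h. The 24 h libraries lay above the 0 h libraries, while the lowest 12 h library lay between the 0 h libraries.

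**Figure D2:**
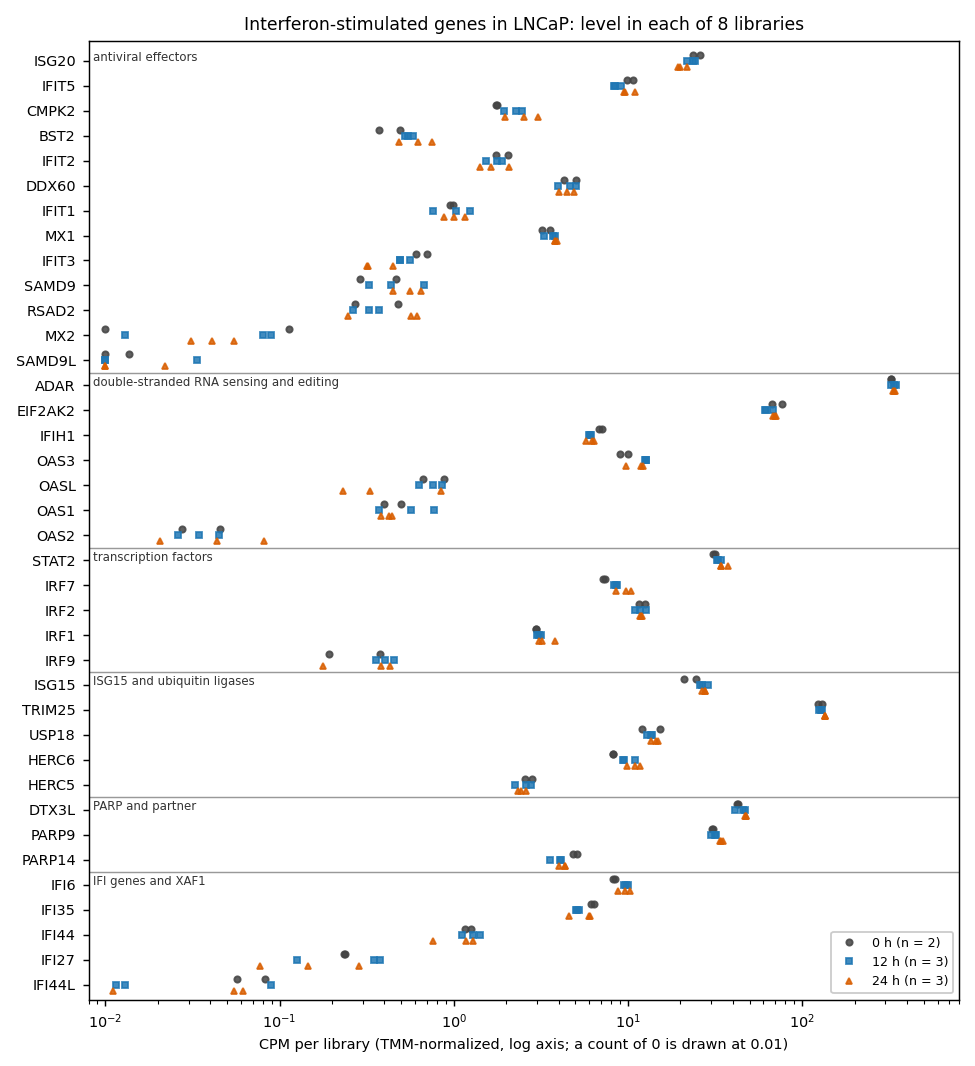
Level of the 38 members with a row in the count table, in CPM on a log axis, with each point a library (circles 0 h, squares 12 h, triangles 24 h) and members ordered by CPM per kb within each role. Members spread from 0 counts to 348 CPM for ADAR, and 17 of the 34 tested members did not overlap between 24 h and 0 h, against 43.2% of all genes.

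Neighbouring members of the same gene family differed widely in level. On chromosome 12, OAS3 was at 0.628 CPM per kb and its neighbour OAS1 at 0.0370, while OAS2 held 2 to 6 counts in each library. On chromosome 10, IFIT5 was at 2.19 CPM per kb, IFIT2 at 0.408, IFIT1 at 0.217 and IFIT3 at 0.0973. On chromosome 21, MX1 was at 0.203 CPM per kb and MX2 was not detected. On chromosome 1, IFI44 was at 0.579 CPM per kb and IFI44L was not detected. On chromosome 7, SAMD9 was at 0.0702 CPM per kb and SAMD9L was not detected. On chromosome 4, HERC6 was at 1.70 and HERC5, which joins ISG15 to its targets, at 0.534 CPM per kb.

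The 4 undetected members were MX2, SAMD9L, OAS2 and IFI44L. MX2, a restriction factor of the MX family, held 10 and 0 counts at 0 h, 1, 8 and 7 at 12 h, and 5, 3 and 3 at 24 h. SAMD9L held 0 and 1 counts at 0 h, 0, 3 and 0 at 12 h, and 2, 0 and 0 at 24 h. OAS2, a sensor of double-stranded RNA, held 4 and 2 counts at 0 h, 2, 4 and 3 at 12 h, and 4, 2 and 6 at 24 h. IFI44L held 5 and 6 counts at 0 h, 1, 8 and 1 at 12 h, and 1, 6 and 4 at 24 h. With no low-count filter, none of these 4 genes passed the test, and at these counts a fall or a small rise could not be seen. A further 10 of the 34 detected members had fewer than 100 counts in some library, and 24 had 100 or more in every library.

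The question of whether these genes changed during ASPN treatment was addressed by comparing 12 h and 24 h with 0 h and with each other. The test was edgeR over 21071 genes that passed the count filter. All 34 detected members passed it. At 12 h, 2 members were higher (OAS3 and ISG15) and 1 was lower (EIF2AK2) at an adjusted p of at most 0.05. Over all genes tested, 4.85% were higher and 6.75% lower, and the 2 of 34 members that were higher are 5.88%. At 24 h, 3 members were higher (ISG15, HERC6 and IRF7) and 1 was lower (ISG20), which are 8.82% and 2.94% of the members, against 7.82% higher and 8.49% lower over all genes. In this fit, shares of members past the test were near or below those of all genes. The share higher at 24 h depended on the setting. It was 8 of 34 members (23.5%) against 9.40% of all genes without 12 h replicate 1, and 5 of 34 (14.7%) against 8.25% without 12 h replicate 2. With upper-quartile normalization it was 6 of 34 (17.6%) against 8.30%, and among genes averaging at least 100 normalized counts it was 8 of 24 (33.3%) against 12.8%. Without 0 h replicate 1, which leaves a single 0 h library whose spread is taken from the other groups, 0 members were higher at either time, against 1.10% and 3.06% of all genes. Leaving out the unnumbered 0 h library also left a single 0 h library, but the members called higher then stayed the same. The median log2 change of members was 0.0749 at 12 h and 0.0761 at 24 h without the unnumbered library. Without 0 h replicate 1 it was 0.0541 and 0.0471. In bulk RNA, a lower level in every cell and fewer cells that express a gene cannot be told apart.

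No member passed both the test and a fold change of 1.5 in any comparison, against 1.05% of all genes at 12 h, 2.45% at 24 h and 0.18% for 24 h against 12 h. DESeq2 gave 0 such members as well. The 95% interval of the change lay within 1.5-fold in both directions for 23 of 34 members at 12 h, 22 of 34 at 24 h and 25 of 34 between the treated times. Of the 12 members whose interval reached past 1.5-fold at 24 h, 9 had fewer than 100 counts in some library. The median log2 change of the 34 members was 0.06 at 12 h and 0.07 at 24 h, against a median of 0.00 over all genes in each comparison. Of the 34 members, 20 had a positive and 14 a negative change at 12 h, and 19 and 15 at 24 h.

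**Figure D3:**
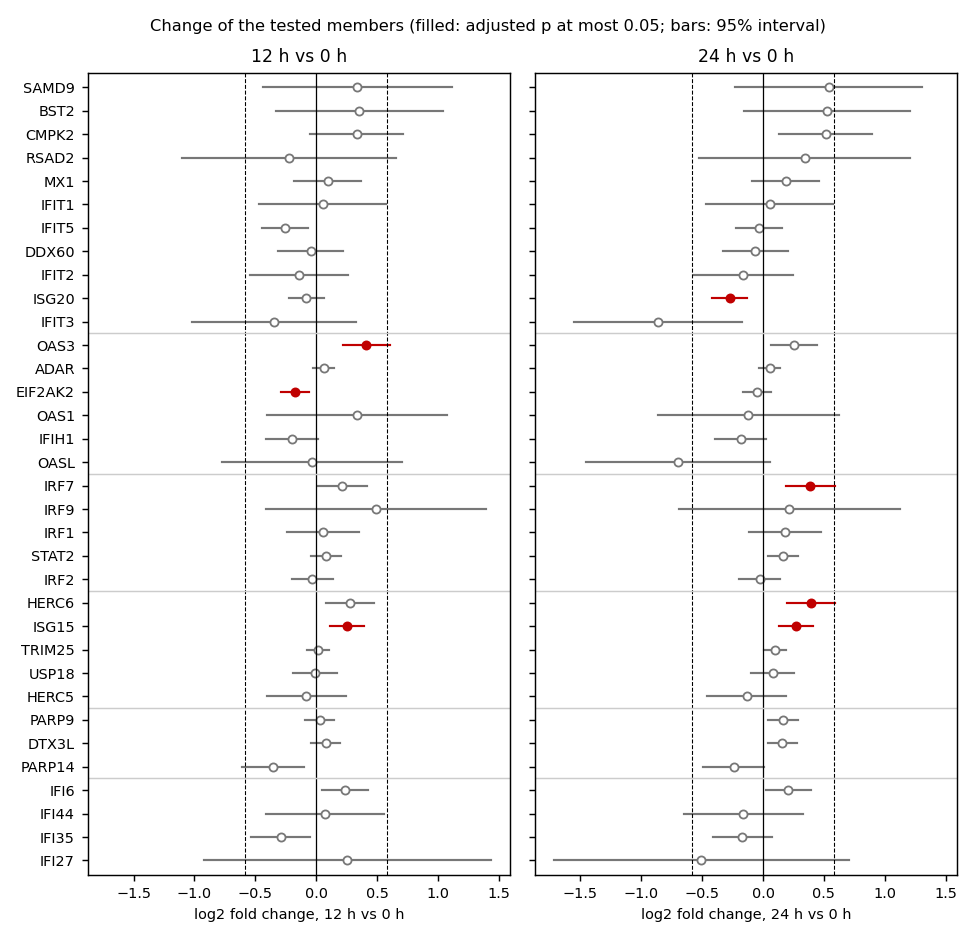
Log2 fold change of the 34 tested members at 12 h (left) and 24 h (right) against 0 h, with 95% intervals, grouped by role. Filled red points passed an adjusted p of 0.05 (3 at 12 h, 4 at 24 h), and dashed lines mark 1.5-fold, which no filled point passes.

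Among the double-stranded RNA sensors and editors, OAS3 rose and EIF2AK2 fell at 12 h. OAS3 (chr12:112938051-112976460, GRCh38) makes 2′-5′ oligoadenylates, second messengers that trigger RNA decay. Its level was 8.99 and 9.97 CPM at 0 h, 12.7, 12.7 and 12.5 at 12 h, and 12.2, 9.81 and 11.9 at 24 h. All 12 h libraries lay above the 0 h libraries, and 24 h replicate 2 fell back between them. The log2 change was 0.41 ± 0.09 (SE; adjusted p = 0.00274) at 12 h and 0.25 ± 0.09 (adjusted p = 0.0619) at 24 h. The 12 h change was 0.34 (adjusted p = 0.136) without 0 h replicate 1, and the 24 h change 0.35 (adjusted p = 0.0124) without 24 h replicate 2.

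EIF2AK2 (chr2:37099210-37157522), which encodes the kinase PKR that stops translation upon binding double-stranded RNA, was among the more abundant members. It was at 76.7 and 67.2 CPM at 0 h, 61.5, 68.0 and 62.1 at 12 h, and 68.0, 69.5 and 70.9 at 24 h. The 12 h and 0 h libraries overlapped, and the 0 h libraries differed from each other by more than the 24 h libraries did. The log2 change at 12 h was -0.17 ± 0.06 (adjusted p = 0.0419), a call that 8 of 15 alternatives lost. It was -0.07 (adjusted p = 0.683) without 0 h replicate 1, and it also failed the test without 12 h replicate 1 or 3 or any of the 24 h libraries (adjusted p = 0.0608 to 0.156). At 24 h the log2 change was -0.05 ± 0.06 (adjusted p = 0.625).

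The remaining members of this group did not pass the test. ADAR was at 322 and 324 CPM at 0 h, 326 to 348 at 12 h and 332 to 339 at 24 h, with log2 changes of 0.06 ± 0.04 and 0.06 ± 0.04. IFIH1, which encodes the RNA sensor MDA5, was at 6.80 and 7.11 CPM at 0 h, 5.95 to 6.16 at 12 h and 5.78 to 6.36 at 24 h, with log2 changes of -0.20 ± 0.10 (adjusted p = 0.247) and -0.18 ± 0.10 (adjusted p = 0.262). Its treated libraries did not overlap those at 0 h in either comparison. OASL, a relative of the OAS enzymes without their activity, was at 0.670 and 0.880 CPM at 0 h and 0.846, 0.331 and 0.231 CPM at 24 h. Its log2 change at 24 h was -0.70 ± 0.37 (adjusted p = 0.223), and without 24 h replicate 1 it was -1.44 (adjusted p = 0.00796).

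In the ISG15 group, ISG15 itself rose at both times and HERC6 rose at 24 h. ISG15 (chr1:1001138-1014540) is joined to proteins much as ubiquitin is. It was at 21.1 and 24.5 CPM at 0 h, 28.9, 26.5 and 26.0 at 12 h, and 27.8, 27.8 and 26.7 at 24 h. Every treated library lay above both 0 h libraries. The log2 change was 0.25 ± 0.07 (1.19-fold, adjusted p = 0.0139) at 12 h and 0.27 ± 0.07 (1.21-fold, adjusted p = 0.00563) at 24 h. Without 0 h replicate 1, the lower 0 h library, the changes were 0.15 (adjusted p = 0.446) and 0.16 (adjusted p = 0.281). The exons of ISG15 share 4.15% of their bases with another gene, and the promoter printed above starts inside the gene's longest annotated span.

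HERC6 (chr4:88378739-88443097), a HECT-domain ubiquitin ligase, was at 8.22 and 8.21 CPM at 0 h, 9.43, 11.0 and 9.50 at 12 h, and 11.0, 9.83 and 11.7 at 24 h. The 0 h libraries lay below all treated libraries. Its log2 change was 0.28 ± 0.10 (adjusted p = 0.0562) at 12 h and 0.40 ± 0.10 (1.32-fold, adjusted p = 0.00344) at 24 h. HERC6 passed the test at 12 h in 6 of 15 alternatives, among them upper-quartile normalization (adjusted p = 0.0425) and protein-coding genes only (0.036). Its 24 h change was 0.39 (adjusted p = 0.0509) without 0 h replicate 1, and its 12 h change 0.32 (adjusted p = 0.0322) without 12 h replicate 1. HERC5 was at 2.57 to 2.80 CPM at 0 h and 2.34 to 2.58 CPM at 24 h, USP18, which removes ISG15 from proteins, was at 12.0 to 15.2 and 13.6 to 14.8 CPM, and TRIM25 was at 123 to 130 and 135 to 136 CPM. None of these 3 genes passed the test. A near-copy of USP18 exists in the genome, so its counts are uncertain.

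Among the transcription factors, IRF7 rose at 24 h. IRF7 (chr11:612553-615983), the factor that drives interferon-alpha genes, was at 7.19 and 7.41 CPM at 0 h, 8.61, 8.50 and 8.30 at 12 h, and 10.4, 8.50 and 9.80 at 24 h. Every treated library lay above both 0 h libraries. The log2 change was 0.22 ± 0.10 (adjusted p = 0.175) at 12 h and 0.39 ± 0.10 (1.31-fold, adjusted p = 0.00502) at 24 h. With 0 h replicate 1 left out, the 24 h change was 0.36 (adjusted p = 0.0857). STAT2 was at 30.9 and 31.8 CPM at 0 h and 34.1, 34.1 and 37.4 CPM at 24 h, with a log2 change of 0.17 ± 0.06 (adjusted p = 0.0566, or 0.0336 without 12 h replicate 1). IRF1 (2.96 to 3.79 CPM) and IRF2 (11.0 to 12.7 CPM), factors that activate and oppose ISRE genes respectively, did not pass the test. IRF9 was at 0.177 to 0.454 CPM and is uncertain, since 27.2% of its exon bases are shared with another gene, as are 22.9% of those of IRF1.

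Of the antiviral effectors, ISG20 fell at 24 h. ISG20 (chr15:88635670-88656483), an exonuclease that degrades RNA, was at 23.7 and 25.8 CPM at 0 h, 24.4, 21.9 and 23.8 at 12 h, and 19.5, 21.9 and 20.01 at 24 h. The 24 h libraries lay below the 0 h libraries. The log2 change was -0.08 ± 0.07 (adjusted p = 0.53) at 12 h and -0.27 ± 0.07 (adjusted p = 0.00599) at 24 h. Without the unnumbered 0 h library, the higher 0 h library, it was -0.21 (adjusted p = 0.113).

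**Figure D4:**
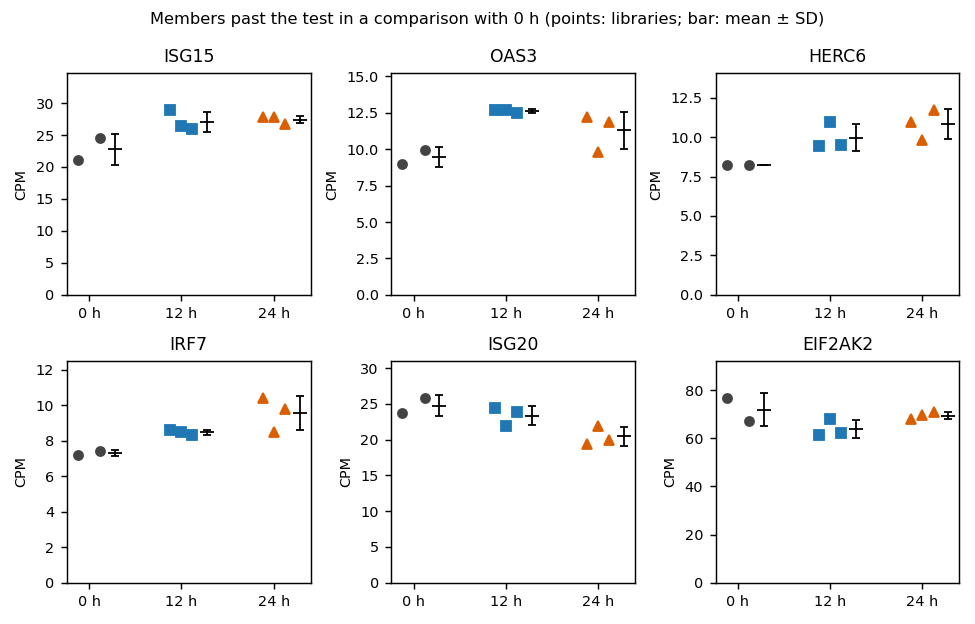
CPM per library (points, linear axes from 0) and mean ± SD (bars) at 0 h (n = 2), 12 h (n = 3) and 24 h (n = 3) for the 6 members past the test in a comparison with 0 h. ISG15, HERC6 and IRF7 have every treated library above the 0 h libraries, ISG20 is lowest at 24 h, and EIF2AK2 overlaps between 0 h and 12 h.

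The other 10 detected antiviral effectors did not pass the test in any comparison. IFIT1, which binds foreign RNA caps, was at 0.954 and 0.990 CPM at 0 h, 0.756 to 1.25 at 12 h and 0.879 to 1.16 at 24 h, with log2 changes of 0.05 ± 0.26 and 0.06 ± 0.26. MX1, a GTPase that blocks viral nucleocapsids, was at 3.55 and 3.20 CPM at 0 h, 3.30 to 3.83 at 12 h and 3.81 to 3.91 at 24 h, with log2 changes of 0.09 ± 0.14 and 0.19 ± 0.14. RSAD2 was at 0.272 and 0.481 CPM at 0 h, 0.263 to 0.370 at 12 h and 0.248 to 0.613 at 24 h. For these genes, the libraries overlapped between 0 h and 12 h. At 24 h those of MX1 lay above both 0 h libraries, while those of IFIT1 and RSAD2 overlapped them. MX1 shares 5.55% of its exon bases with other genes, among them TMPRSS2.

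The changes of the other effectors pointed in different directions. IFIT3 was at 0.704 and 0.605 CPM at 0 h and 0.319, 0.321 and 0.449 at 24 h, with a log2 change of -0.86 ± 0.34 (adjusted p = 0.0814). CMPK2, a mitochondrial nucleotide kinase, was at 1.78 and 1.75 CPM at 0 h and 2.53, 3.03 and 1.97 at 24 h, with a log2 change of 0.51 ± 0.19 (adjusted p = 0.057). Its change was 0.65 (adjusted p = 0.0206) without 24 h replicate 3 and 0.52 (adjusted p = 0.0456) without 12 h replicate 1. CMPK2 and its neighbour RSAD2 share exon bases (6.20% of those of RSAD2). BST2 (tetherin, which holds budding virus at the cell surface) had log2 changes of 0.35 ± 0.34 and 0.53 ± 0.33, and SAMD9 had 0.34 ± 0.38 and 0.54 ± 0.38. IFIT5 was at 10.8 and 9.88 CPM at 0 h, 8.33 to 9.15 at 12 h and 9.55 to 11.0 at 24 h, with a log2 change of -0.26 ± 0.09 (adjusted p = 0.0708) at 12 h. IFIT2 (1.42 to 2.08 CPM) and DDX60 (3.94 to 5.04 CPM) overlapped between all time points. IFIT2 shares 13.6% of its exon bases with other genes.

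The PARP9 and DTX3L pair encodes a complex of an ADP-ribosyl transferase family protein and a ubiquitin ligase. PARP9 was at 30.5 and 30.9 CPM at 0 h, 30.1 to 32.0 at 12 h, and 34.1, 35.2 and 33.9 at 24 h. DTX3L was at 42.0 and 42.7 CPM at 0 h, 41.1 to 47.1 at 12 h, and 46.8, 47.5 and 47.4 at 24 h. For both genes the 24 h libraries lay above the 0 h libraries, and the log2 changes at 24 h were 0.16 ± 0.06 (adjusted p = 0.0534) for PARP9 and 0.16 ± 0.06 (adjusted p = 0.0587) for DTX3L. Both passed without 12 h replicate 1 (adjusted p = 0.0296 and 0.0189) or 12 h replicate 2 (0.0496 and 0.0449). PARP14 was at 5.13 and 4.87 CPM at 0 h, 3.58 to 4.11 at 12 h and 4.03 to 4.34 at 24 h. Its log2 changes were -0.35 ± 0.12 (adjusted p = 0.0591) and -0.24 ± 0.12 (adjusted p = 0.203). DESeq2 called PARP9, DTX3L and STAT2 higher at 24 h besides the 3 members called by edgeR. That gave 6 of the 28 members to which it gave an adjusted p (21.4%), against 11.3% of all genes it tested.

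The IFI genes did not pass the test. IFI6 was at 8.38 and 8.16 CPM at 0 h, 9.51 to 10.02 at 12 h and 8.78 to 10.3 at 24 h, with log2 changes of 0.24 ± 0.09 (adjusted p = 0.101) and 0.21 ± 0.09 (adjusted p = 0.132). Of its exon bases, 23.1% are shared with a long noncoding gene. IFI35 was at 6.38 and 6.13 CPM at 0 h, 5.03 to 5.24 at 12 h and 4.60 to 6.07 at 24 h, with log2 changes of -0.29 ± 0.12 (adjusted p = 0.115) and -0.17 ± 0.12 (adjusted p = 0.387). The time points of IFI27 (0.0769 to 0.376 CPM) and IFI44 (0.762 to 1.41 CPM) overlapped.

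Groups of libraries that do not overlap were common over the whole table. Of the 34 members, 15 (44.1%) did not overlap between 12 h and 0 h, against 36.9% of all genes. Between 24 h and 0 h, 17 of 34 members did not overlap, against 43.2% of all genes, and between 24 h and 12 h 6 members (17.6%) did not, against 19.6%. Absence of overlap was thus about as frequent among members as elsewhere. Members with and without an ISRE match were also described apart. The 20 tested members with a match had median log2 changes of 0.04 at 12 h and 0.01 at 24 h. Of these 20 members, 2 were higher and 1 lower at 12 h, and 1 was higher and 1 lower at 24 h. The 9 tested members with a window but no match had medians of 0.08 and 0.17, with HERC6 at 24 h as the single call. Over all genes, 4.85% were higher and 6.75% lower at 12 h, and 7.82% and 8.49% at 24 h. Whether members with and without a match differed was not tested.

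Between 24 h and 12 h, 0 members passed the test in either direction, and 5 had an unadjusted p under 0.05. Over all genes, 1.12% were higher and 1.61% lower at 24 h than at 12 h, and DESeq2 called 0 members. ISG20 had the smallest adjusted p (0.112), with a log2 change of -0.19 ± 0.06. Without 12 h replicate 2 the change was -0.23 (adjusted p = 0.0465), and OASL passed without 24 h replicate 1 (-1.40, adjusted p = 0.033). The comparisons of 12 h and 24 h with 0 h share the same 0 h libraries.

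The upper part of the pathway was described from lists of its other genes. Of 21 interferon ligand symbols, 3 had a row, namely IFNA21 with at most 2 counts in a library, IFNB1 with at most 1 and IFNW1 with at most 3. The receptor subunit IFNAR1 was at 68.1 to 78.1 CPM, 4.72 CPM per kb. Its partner IFNAR2 was at 0.769 to 1.17 CPM, 0.0672 CPM per kb, with 27.7% of its exon bases shared with other genes. The interferon-gamma receptor IFNGR1 fell, from 29.5 and 27.5 CPM at 0 h to 22.3, 22.6 and 23.5 at 12 h and 22.9, 24.9 and 26.0 at 24 h. Its log2 changes were -0.32 ± 0.07 (adjusted p = 0.00121) and -0.21 ± 0.07 (adjusted p = 0.023), and without 0 h replicate 1 they were -0.27 (adjusted p = 0.0727) and -0.17 (adjusted p = 0.267). The 24 h call was also lost without 24 h replicate 1 (adjusted p = 0.159) or 24 h replicate 2 (0.0544). It was the only receptor of 6 past the test. IFNGR2 was at 22.3 to 26.9 CPM, and the interferon-lambda receptor genes IFNLR1 (0.545 to 0.882 CPM) and IL10RB (0.148 to 0.486 CPM, with 21.6% of its exon bases shared with another gene) were low.

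Of the kinases, JAK1 was at 4.96 and 4.44 CPM at 0 h, 3.80 to 5.27 at 12 h and 3.54 to 4.29 at 24 h, which is 0.327 CPM per kb over all libraries. JAK2 stood at 4.11 and TYK2 at 5.19 CPM per kb. JAK2 was at 28.6 to 31.0 CPM at 12 h and 33.4 to 35.0 at 24 h, with a log2 difference between 24 h and 12 h of 0.20 ± 0.06 (adjusted p = 0.0495). JAK2 lost this call when any of the 6 treated libraries but 12 h replicate 2 was left out (adjusted p up to 0.217), and with 4 other settings. STAT3 was lower at 12 h (-0.14 ± 0.04, adjusted p = 0.033) and at 24 h (-0.15 ± 0.04, adjusted p = 0.018), at 174 and 176 CPM at 0 h and 157 to 162 CPM afterwards. The 12 h call was lost without any single library (adjusted p up to 0.204), and the 24 h call without 0 h replicate 1 (adjusted p = 0.0932), 24 h replicate 2 (0.0887) or 24 h replicate 3 (0.063). None of 8 inhibitors of the pathway (SOCS, PIAS and PTPN genes) passed the test.

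**Figure D5:**
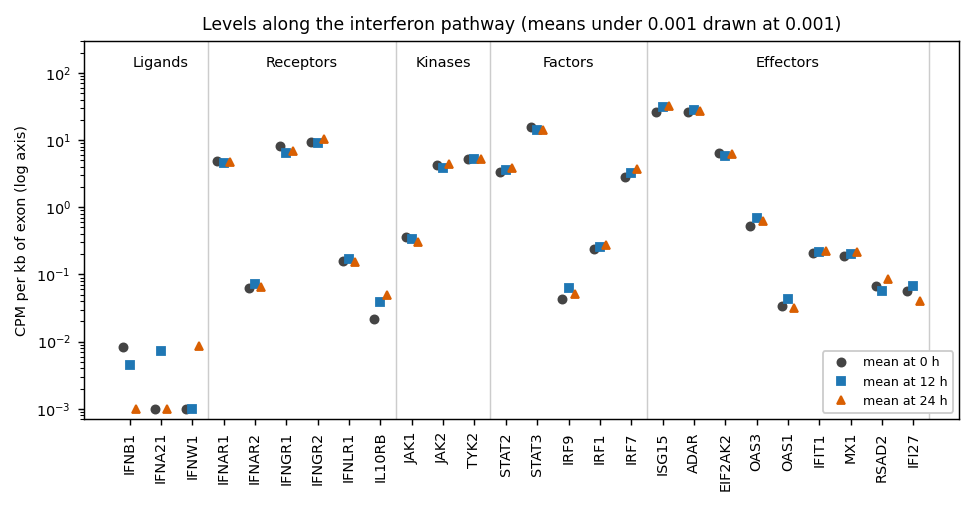
Mean CPM per kb of exon at each time point (log axis) for ligands, receptors, kinases, factors and examples of effectors. Values at IFNAR2, JAK1 and IRF9 are lower than at IFNAR1, TYK2 and STAT2, and the 3 time points lie close together for most genes. The levels of IFNAR2 and IRF9 are uncertain, since 27.7% and 27.2% of their exon bases are shared with other genes.

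Of 14 tested nucleic acid sensors and adaptors, 4 were higher at 12 h and 4 at 24 h (28.6% each), against 4.85% and 7.82% of all genes. Without 0 h replicate 1 these counts were 2 and 2, against 1.10% and 3.06% of all genes. IKBKE, a kinase that activates IRF3 and IRF7, was at 2.29 and 1.88 CPM at 0 h, 3.53, 3.69 and 3.06 at 12 h, and 3.65, 3.37 and 3.23 at 24 h. Every treated library lay above the 0 h libraries, and IKBKE was the only gene of the list past both the test and 1.5-fold, with log2 changes of 0.71 ± 0.16 (1.63-fold, adjusted p = 0.00229) and 0.71 ± 0.16 (1.63-fold, adjusted p = 0.0014). Both calls held in all 15 alternatives. IRF3, the factor that starts interferon-beta transcription, was at 30.6 and 33.9 CPM at 0 h, 37.3 to 41.6 at 12 h and 38.0 to 40.2 at 24 h, with log2 changes of 0.27 ± 0.06 (adjusted p = 0.00351) and 0.28 ± 0.06 (adjusted p = 0.00147). Without 0 h replicate 1 neither change of IRF3 passed (adjusted p = 0.189 and 0.106). IRF5 and TRIM65, a ligase of MDA5, were also higher at both times, with log2 changes of 0.35 and 0.28 for IRF5 and 0.22 and 0.22 for TRIM65. TRIM65 lost both calls without 0 h replicate 1 (adjusted p = 0.467 and 0.393), the 12 h call without 12 h replicate 2 (0.0755) and the 24 h call without 24 h replicate 1 (0.0689). IRF5 lost its 24 h call without the unnumbered 0 h library (adjusted p = 0.107) or 24 h replicate 3 (0.0524). The DNA sensors CGAS, IFI16 and ZBP1 held at most 8, 10 and 1 counts in a library. DDX58, which encodes RIG-I, was at 0.102 to 0.368 CPM and shares 43.2% of its exon bases with another gene. IRF3 shares 19.35% of its exon bases with other genes.

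Other interferon-induced genes outside the member list were tested for comparison of counts only. Of 39 tested, 6 were higher at 12 h (15.4%, against 4.85% of all genes) and 2 lower (5.13%, against 6.75%). At 24 h, 11 were higher (28.2%, against 7.82% of all genes) and 2 lower (5.13%, against 8.49%). In either direction, 20.5% and 33.3% were past the test, against 11.6% and 16.3% of all genes. MOV10, an RNA helicase, was at 39.7 and 42.4 CPM at 0 h, 48.8 to 50.7 at 12 h and 49.6 to 50.8 at 24 h, with log2 changes of 0.29 ± 0.05 at both times (adjusted p = 4.28e-04 and 2.03e-04). PARP12 had log2 changes of 0.30 and 0.33, LY6E 0.25 and 0.20, TRIM14 0.22 and 0.22, and CNP 0.09 and 0.22, of which the 12 h change of CNP did not pass. TRIM5, a restriction factor of retroviral capsids, fell in steps from 65.3 and 63.0 CPM at 0 h to 56.4 to 58.3 at 12 h and 48.2 to 50.6 at 24 h, with log2 changes of -0.17 ± 0.05 (adjusted p = 0.0297) and -0.38 ± 0.05 (adjusted p = 1.24e-06). APOL6, named after its values were seen because it alone in this list passed both the test and 1.5-fold, fell from 2.53 and 2.49 CPM to 1.16 to 1.63 at 12 h and 1.10 to 1.70 at 24 h, with log2 changes of -0.81 ± 0.21 (adjusted p = 0.00817) and -0.92 ± 0.21 (adjusted p = 0.00172). Without 0 h replicate 1, the 12 h calls of PARP12, LY6E, TRIM14, TRIM5 and APOL6 (adjusted p = 0.119 to 0.286) and the 24 h calls of LY6E (0.319) and TRIM14 (0.0959) were lost. Over the whole list, 1 of 40 tested genes then passed at 12 h (MOV10) and 5 of 40 at 24 h, against 2.79% and 7.13% of all genes in either direction. The 12 h call of APOL6 was also lost without 12 h replicate 3 (adjusted p = 0.0549), and that of TRIM5 without 12 h replicate 2 (0.0615), 12 h replicate 3 (0.0968) or 24 h replicate 2 (0.061).

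In the HLA class I list of 15 genes, TAPBP, the peptide-loading chaperone tapasin, was higher at 12 h (log2 change 0.18 ± 0.05, adjusted p = 0.0122) and at 24 h (0.30 ± 0.05, adjusted p = 1.89e-05). TAP1, a peptide transporter, was higher at 24 h (0.21 ± 0.07, adjusted p = 0.0334), and the trimming peptidase ERAP1 was lower at both times (-0.21 ± 0.06 and -0.26 ± 0.06, adjusted p = 0.0253 and 0.00358). With 0 h replicate 1 left out, ERAP1 lost both calls (adjusted p = 0.484 and 0.167), TAPBP its 12 h call (0.273) and TAP1 its call (0.384). TAP1 also lost it without 24 h replicate 2 (adjusted p = 0.122) or 3 (0.121), and ERAP1 its 12 h call without 12 h replicate 2 (0.0804). HLA-B, HLA-C and B2M did not pass the test. Near-identical copies can share reads among HLA genes, so their counts are uncertain. Of the exon bases of TAPBP, 21.0% are shared with other genes, and of those of TAP1, 14.2%.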

How the data were processed

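LNCaP libraries (bulk mRNA, paired-end) were analysed from deposited raw read counts per gene. According to the published methods, the authors trimmed reads with Cutadapt, aligned them to GRCh38.p13 with STAR and counted them with featureCounts. They left out a 0 h library for quality. Strand and multi-mapping options are not given in the sources used here, so overlapping genes and close copies can share reads. Groups came from the labels. The second 0 h column carries a number that no 0 h label has and was used without one. No column was left unused.

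Genes were tested with edgeR 4.0.16 in R 4.3.3 (robust quasi-likelihood F test, TMM, filterByExpr, 1 coefficient per time point over all 8 libraries), with Benjamini-Hochberg adjustment over 21071 genes. DESeq2 1.42.0, other normalizations and filters, and leaving out each library served as alternatives. Scripts were tested on simulated data. CPM per kb used exon lengths of GENCODE release 44. Its coordinates equalled those of the deposited table for 30996 of 30996 shared versioned identifiers. Genes whose identifier version differed were outside this comparison, among them IRF9, STAT2, IFNAR1, IFNAR2, JAK1 and TYK2. Their exon lengths may differ from the exons that were counted, so their CPM per kb is less certain. Replicate pairs differed beyond sampling noise (chi-square per degree of freedom 5.10 to 13.8), so each library was counted once.

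Members and lists were chosen with earlier results of these data known. Members past the test are given in each library, and pathway lists by counts, their core genes and up to 4 genes with the smallest p. Some genes of the pathway lists are not reported here and were left out of the list counts.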

Additional observations from a re-analysis of the deposited data

Results flagged for a closer look

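Outside the member list, 4 of the genes described had changes against 0 h that differed between 12 h and 24 h by a test of that difference, in edgeR with Benjamini-Hochberg adjustment over all genes. TRIM5 was lower at 24 h than at 12 h (log2 difference -0.22 ± 0.05, adjusted p = 0.00556), and without 24 h replicate 1 the adjusted p was 0.0625. JAK2 was higher at 24 h than at 12 h (0.20 ± 0.06, adjusted p = 0.0495), and did not differ from 0 h past the threshold at either time. Of the prostate line markers, KLK3 was lower (-0.18 ± 0.04, adjusted p = 0.0129) and FOLH1 higher (0.21 ± 0.04, adjusted p = 6.77e-04) at 24 h than at 12 h. The call of KLK3 was lost without 12 h replicate 3 (adjusted p = 0.0663), 24 h replicate 1 (0.0912) or 24 h replicate 2 (0.163), and that of JAK2 without any treated library but 12 h replicate 2 (up to 0.217). The groups hold 2 or 3 libraries, too few for the test of a single library standing apart.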

How the results depend on the processing

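Across 184 alternative values of the summary results, 155 stayed within 1.5 times the count or within the spread between replicates and 29 moved. Of 1098 alternative values of single genes, 115 lost their call, 37 gained one and 0 changed direction. These values cover only members past the test in some setting and genes of the other lists past it in the main analysis. Genes chosen by a call seldom change direction, so the count of 0 says little about stability. At 12 h, the members lower (1 in the main analysis) numbered 0 with upper-quartile normalization and with the compared time points alone, and 2 among protein-coding genes only. At 24 h, the members higher (3) numbered 6 with upper-quartile normalization, DESeq2, the compared time points alone or protein-coding genes only, and 8 when genes averaging under 100 normalized counts were left out. Over all genes, 8.30% to 11.5% were higher with the settings that gave 6, and 12.8% with the filter that gave 8 (of 24 members tested). With that filter the median log2 change of members was 0.0306 at 12 h and 0.0757 between 24 h and 12 h. The count filter and the restriction to protein-coding genes tested fewer genes, and the cause was not tested.

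Leaving out each library in turn, members higher ranged from 0 to 3 at 12 h and from 0 to 8 at 24 h, and members lower from 0 to 1 at 12 h, 0 to 2 at 24 h and 0 to 1 between 24 h and 12 h. Members past 1.5-fold ranged from 0 to 1 at 24 h and from 0 to 1 between 24 h and 12 h (OASL without 24 h replicate 1, CMPK2 without 24 h replicate 3). The median log2 change ranged from 0.0142 (without 12 h replicate 2) to 0.0749 at 12 h and from 0.0152 (without 12 h replicate 1) to 0.07 between 24 h and 12 h. Both counts of higher members were 0 without 0 h replicate 1, and the 8 came without 12 h replicate 1.

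With the replicate number as a block, 0 members were higher and 0 lower between 24 h and 12 h, as without it, while all genes gave 397 higher and 468 lower against 235 and 339. Whether the numbers pair the libraries could not be decided with 3 libraries in each treated group. Deviations of same-numbered libraries correlated at 0.12, 0.03 and 0.03, and those of differently numbered libraries at -0.10 to 0.07. Not every library correlated best with its own number. No block could be fitted against 0 h, where the groups share 1 number. Depth limited the 10 members with fewer than 100 counts in some library.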
